A study of Mus musculus with 18 samples.

Results

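The genes of 7 CC chemokines and 2 of their receptors were followed in liver cells of mice whose bile duct had been tied. The ligands were Ccl2, Ccl3, Ccl4, Ccl6, Ccl7, Ccl9 and Ccl20, and the receptors were Ccr1 and Ccr2. These 9 genes were taken by symbol from a table of 54532 genes, and each symbol was found there. CC chemokines are small secreted proteins that draw leukocytes along a concentration gradient by binding G protein-coupled receptors on the moving cell. Ccl2 and Ccl7 are ligands of Ccr2, the receptor with which inflammatory monocytes leave the bone marrow and enter injured tissue. Ccl3, Ccl6 and Ccl9 act on Ccr1 of monocytes and neutrophils, and Ccl20 on Ccr6 of lymphocytes and dendritic cells. In the liver, resident macrophages and bile duct epithelium are both known sources of such ligands during injury.

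Polyadenylated RNA came from primary hepatocytes (MPH), from biliary epithelial cells (BECs), the lining of the bile ducts, and from cells named Kupffer-like after the resident macrophages of the liver. Mice had either bile duct ligation (BDL), which blocks the flow of bile, or a sham operation (Sham). Each of the 6 groups, MPH Sham, MPH BDL, BECs Sham, BECs BDL, Kupffer-like Sham and Kupffer-like BDL, held 3 libraries. The time after ligation, the strain, age and sex of the mice, and whether each library is 1 animal are not stated in the sources used, so the p-values reflect only how far these libraries spread, which may be technical. Levels are FPKM (fragments per kilobase of transcript length, adjusted for the size of the library) and are given as mean ± SD with n = 3 per group throughout.

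Of the 9 genes, 6 lie on chromosome 11 in the mouse genome build GRCm38 (annotation GENCODE M21). Ccl2 (chr11:82035571-82037453) and Ccl7 (chr11:82045712-82047525) are neighbours 8.3 kb apart. In a second cluster on the same chromosome stand Ccl9 (chr11:83572919-83578636), Ccl6 (chr11:83587882-83593087) 9.2 kb beyond it, Ccl3 (chr11:83647844-83649355) and, 13.2 kb from Ccl3, Ccl4 (chr11:83662584-83664683). Ccl20 lies apart from these at chr1:83116766-83119167. Ccr1 (chr9:123962124-123968692) and Ccr2 (chr9:124101950-124113557) are 133.3 kb apart. All 9 are annotated as protein-coding. Antisense genes overlap Ccl2 (Gm17268, listed at 0 in every library) and Ccl6 (E230016K23Rik, at most 0.474 FPKM in any library).

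The stretches in front of 3 of the genes are shown because Ccl20 had the most restricted pattern over cell types and because the neighbours Ccl9 and Ccl6 had like patterns. Each is the 250 bases before the RefSeq start site (GRCm38.p6), 5′ to 3′ on the strand of the gene. Capitals mark a match to a form of the kappa-B site, bound by the transcription factor NF-kappa-B, namely GGG, any 3 bases and TTCC, searched on both strands. The windows are chr1:83116516-83116765 (plus strand) for Ccl20, chr11:83578637-83578886 (minus strand) for Ccl9 and chr11:83593088-83593337 (minus strand) for Ccl6.
Ccl20: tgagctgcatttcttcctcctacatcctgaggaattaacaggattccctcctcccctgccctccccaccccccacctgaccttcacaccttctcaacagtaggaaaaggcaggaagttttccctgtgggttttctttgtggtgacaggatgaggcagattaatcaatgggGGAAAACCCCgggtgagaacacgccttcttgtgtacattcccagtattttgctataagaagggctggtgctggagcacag
Ccl9: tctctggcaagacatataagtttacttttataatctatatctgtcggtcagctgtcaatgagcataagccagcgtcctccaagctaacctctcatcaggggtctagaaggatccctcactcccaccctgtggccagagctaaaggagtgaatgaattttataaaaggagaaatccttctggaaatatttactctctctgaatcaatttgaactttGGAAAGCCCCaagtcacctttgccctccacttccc
Ccl6: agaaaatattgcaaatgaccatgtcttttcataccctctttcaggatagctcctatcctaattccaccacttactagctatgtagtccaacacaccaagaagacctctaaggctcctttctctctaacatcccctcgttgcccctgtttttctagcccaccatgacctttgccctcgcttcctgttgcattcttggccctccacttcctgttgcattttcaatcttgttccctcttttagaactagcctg
Of the 9 genes, 6 had an entry in the promoter table, which covers 250 bases before and 50 after each start site. The kappa-B form was found in 2 of those 6, Ccl20 (80 bases before the start site) and Ccl9 (35 bases before it), and in 5.56% of all 32851 entries of that length. The Ccl6 window held no match. The narrower form with GGGA, any base and TTTCC, a subset of the first, matched 0 of the 6 and 0.411% of all entries. The AP-1 letters TGANTCA matched Ccl9, 53 bases before the start site, and 7.81% of all entries. These matches describe the letters only.

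The libraries carried the transcripts of their named cells, with mixtures that touch the values below. The depth recovered from the deposited values was 15455411 to 20583319 reads in genes per library. In Sham, the summed FPKM of 14 hepatocyte markers was 43321 to 114850 in MPH and at most 3757 elsewhere, and that of 12 biliary markers was 3875 to 4559 in BECs and at most 135 elsewhere. The sum of 12 Kupffer cell markers was 8243 to 9713 in Kupffer-like Sham, but also 2422 to 10044 in MPH Sham, against 242 to 451 in BECs Sham. The part of such cells in the MPH values was not tested. In BECs, 12 stellate cell markers summed to 689 to 1140 FPKM in Sham and 1065 to 1869 in BDL (5 of 11 tested higher, 6 lower, 0 called). Their sum was 71.7 to 162 in MPH Sham and 46.7 to 113 in Kupffer-like Sham. B cell markers summed to 31.3 to 828 FPKM in BECs Sham. The sum of 11 endothelial markers was 290 to 387 FPKM in BECs Sham and 116 to 189 in BECs BDL (11 of 11 lower, 8 called). That of hepatocyte markers was 1554 to 3757 and 199 to 691 (14 of 14 lower, 1 called). Of all genes tested in BECs, 7.66% were called in either direction. The part of these cells in the BECs values was not tested. Kupffer-like BDL 3 stood apart, with Kupffer cell markers at 3084 FPKM (13435 and 18957 in the other 2 Kupffer-like BDL libraries) and 10 neutrophil markers at 2378 FPKM (861 and 916). The sum of hepatocyte markers was 473 to 1114 in Kupffer-like Sham and 1269 to 3929 in Kupffer-like BDL (14 of 14 markers higher by their difference, 0 called), and that of 7 B cell markers was 420 to 453 and 100 to 312 (7 of 7 lower, 1 called). Their part in the Kupffer-like results was not tested. In bulk samples, fewer cells of a type and less RNA per cell cannot be told apart.

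Ligation was compared with Sham within each cell type, to ask which of the ligands and receptors changed and in which cells. Ccr1 rose in all 3 cell types. Ccl9 passed the test in MPH and BECs, Ccl6 in MPH, Ccl2 in BECs and Ccr2 in Kupffer-like cells. Such calls do not compare the cell types, and no gene's response was called as different between any pair of the 3 cell types. Ccl4, Ccl7 and Ccl3 passed the test in none of the 3, and neither did Ccl20, which was found in BECs and was tested there alone. In the plot of all libraries, BDL stands above Sham by the means of every gene and cell type other than Ccl20 outside BECs.

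**Figure D1:**
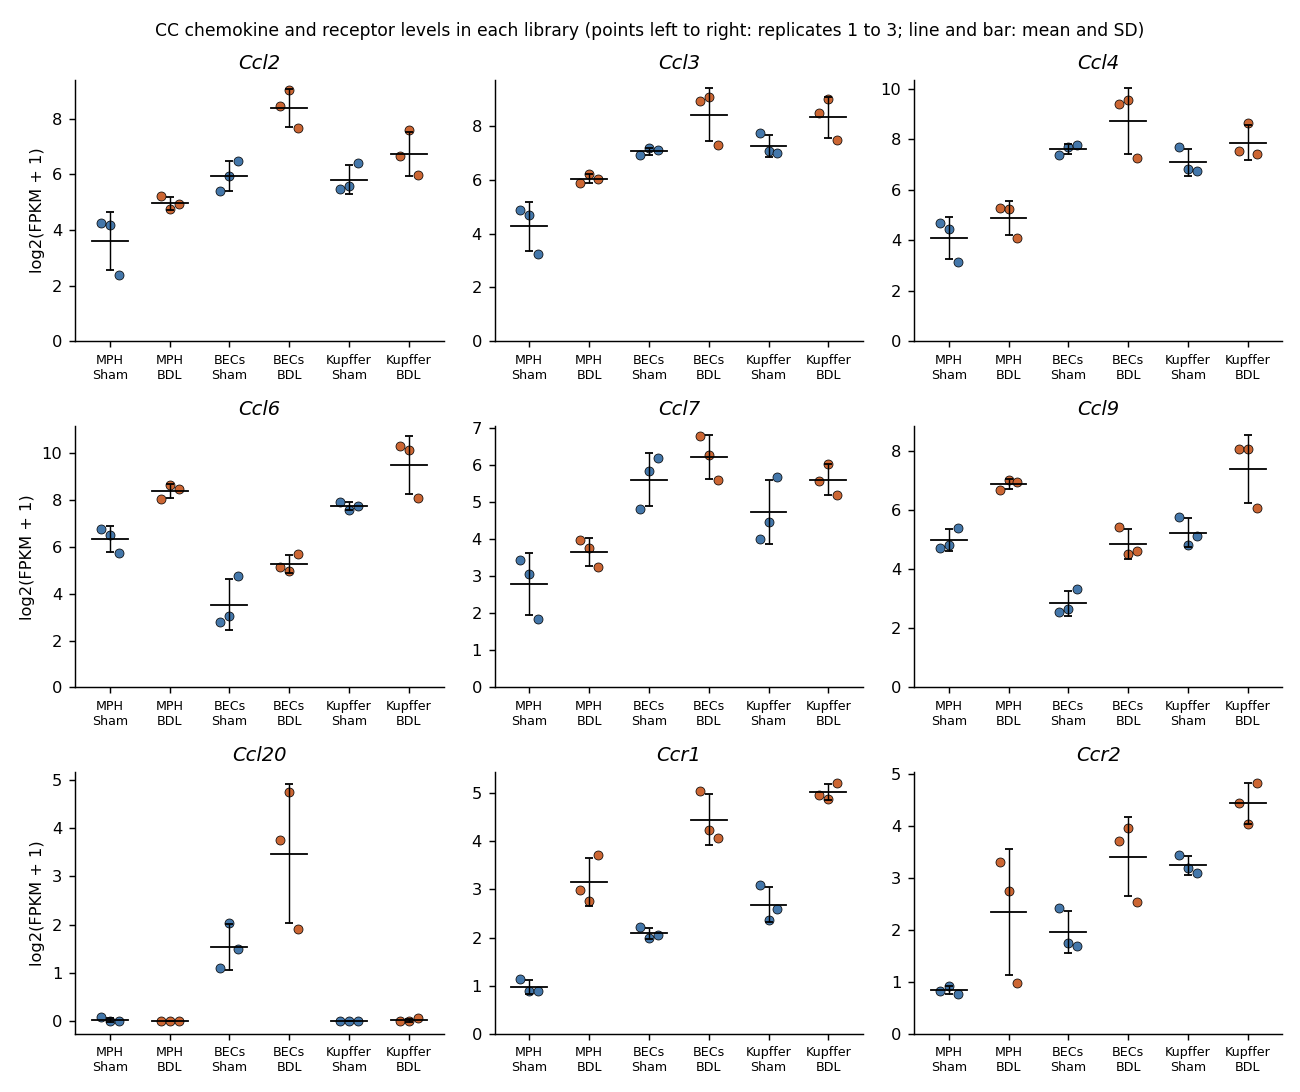
Levels of the 9 genes in each library, on a log2(FPKM + 1) axis, in Sham (blue) and BDL (orange) of MPH, BECs and Kupffer-like cells, with the mean (line) and SD (bar) of 3 libraries. Ccr1 of BDL lies above all Sham libraries in each cell type, and Ccl20 is near 0 outside BECs.

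The test was limma on log2(FPKM + 1) over all genes with at least 1 FPKM in at least 3 libraries of the comparison, and calls were made at an adjusted p (Benjamini-Hochberg) below 0.05. In MPH, 7 of the 9 genes passed that filter (Ccl20 and Ccr2 did not) and 3 were called higher after ligation, where 0.714% of all 12323 genes tested were called higher and 1.57% in either direction. Ccr1 passed it in MPH chiefly through BDL, with 1 Sham library at 1 FPKM or more. In BECs, 3 of 9 were called higher, where 2.96% of all 13573 genes were called higher and 7.66% in either direction. In Kupffer-like cells, 2 of 8 tested (Ccl20 was not) were called higher, where 1.47% of all 12748 genes were called higher and 3.88% in either direction. The 24 differences tested were all positive and 8 of them were called. The BDL libraries lay above all Sham libraries for 5 of 7 tested genes in MPH (11.8% of all genes), 6 of 9 in BECs (13% of all genes) and 4 of 8 in Kupffer-like cells (16.7% of all genes). On the log2 scale the median difference over the tested members was 1.77 (MPH), 1.73 (BECs) and 1.13 (Kupffer-like cells), beside -0.06, -0.03 and 0.03 over all genes tested. The 9 genes were chosen with earlier results of these data known. Their counts and medians beside those of all genes are therefore descriptions and no test of the set.

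**Figure D2:**
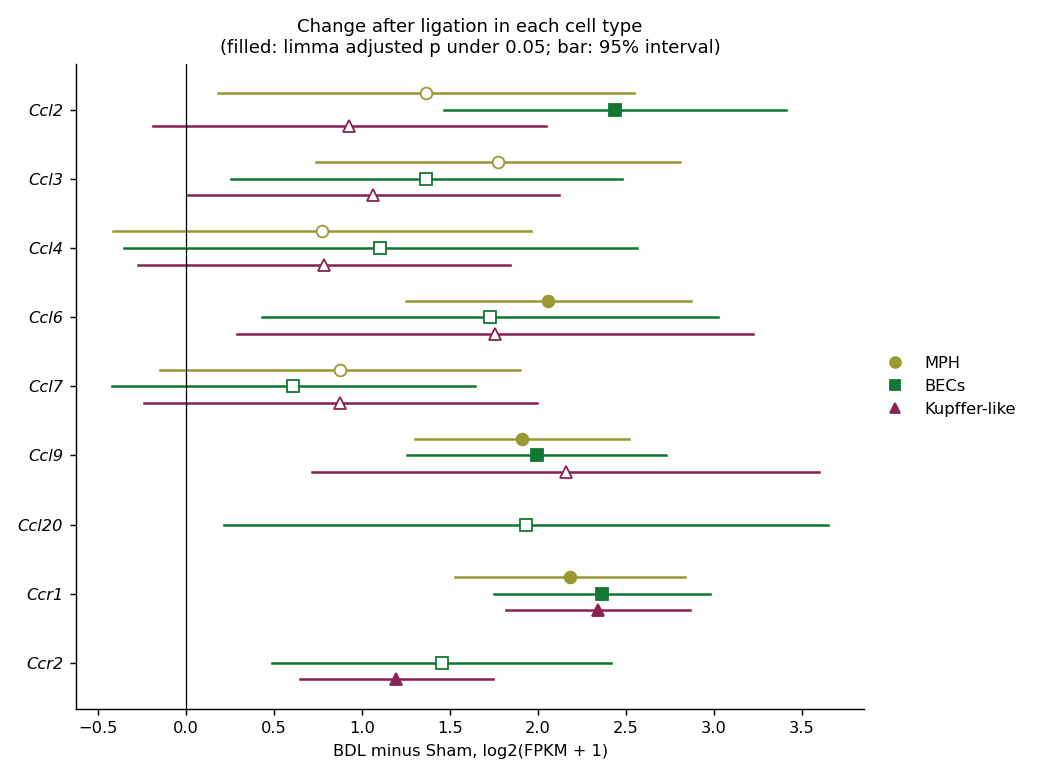
Difference of BDL from Sham on the log2(FPKM + 1) scale for each gene and cell type in which it was tested, with the 95% interval as a bar; filled symbols passed the adjusted threshold of 0.05 in limma. All differences are above 0, and the 3 intervals of Ccr1 overlap each other.

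The calls in MPH and Kupffer-like cells rested on few libraries. In MPH, leaving out Sham 1, Sham 2, BDL 1 or BDL 2 left 0 of 7 genes called by limma, with 4 to 6 at an unadjusted p under 0.05, while only Ccl9 was called without Sham 3 and only Ccr1 without BDL 3. In Kupffer-like cells, leaving out any Sham library or BDL 2 left 0 of 8 called, with 3 to 4 at an unadjusted p under 0.05, only Ccr1 was called without BDL 1, and 5 were called without BDL 3. In BECs, only Ccr1 was called without Sham 1 or Sham 2, Ccl9 and Ccr1 without BDL 1, and 7 of 9 genes without BDL 3. Limma voom on the recovered reads called 2, 3 and 2 of the genes in MPH, BECs and Kupffer-like cells.

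Ccl2, the main monocyte attractant among the ligands, rose in BECs. Its levels in BECs were 41.5, 60.7 and 89.1 FPKM in the Sham libraries and 352, 521 and 202 FPKM in the BDL libraries, so each BDL library exceeded the highest Sham library. The mean went from 63.8 ± 23.9 to 358 ± 160 FPKM, 5.62 times higher (log2 difference 2.44, SE 0.41, adjusted p = 0.0233). With the sex of each library, read from Y-linked genes, as a covariate the call was lost (2.32, adjusted p = 0.0534), and 1 of 3 BECs Sham libraries and 2 of 3 BECs BDL libraries read as female. In MPH, Ccl2 stood at 18.0, 17.0 and 4.27 FPKM in Sham and at 36.2, 25.9 and 29.6 FPKM in BDL. Those groups did not overlap either, but the difference did not pass the test (1.36, SE 0.50, adjusted p = 0.175). In Kupffer-like cells the Sham libraries held 43.1, 46.7 and 83.5 FPKM and the BDL libraries 99.5, 190.3 and 62.7 FPKM, and the groups overlapped through BDL 3 (0.93, SE 0.46, adjusted p = 0.276). By group means, Ccl2 was highest in BECs BDL, followed by Kupffer-like BDL, BECs Sham, Kupffer-like Sham, MPH BDL and MPH Sham. The 3 middle groups, from Kupffer-like BDL to Kupffer-like Sham, overlapped their neighbours, and the others did not.

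Ccl7, the neighbour of Ccl2 and like it a ligand of Ccr2, showed smaller differences, none of which was called. In BECs it stood at 27.2, 56.0 and 72.0 FPKM in Sham and 109, 76.3 and 47.8 FPKM in BDL, and the groups overlapped (0.61, SE 0.43, adjusted p = 0.426). The interval of that difference ran from -0.42 to 1.64. In MPH the level was 6.62 ± 3.72 FPKM in Sham and 11.9 ± 3.20 FPKM in BDL (adjusted p = 0.281), and in Kupffer-like cells 29.0 ± 18.9 and 49.0 ± 14.5 FPKM (adjusted p = 0.300). Ccl7 was lowest in MPH whatever the treatment. BECs BDL, BECs Sham, Kupffer-like BDL and Kupffer-like Sham overlapped each with the next, as did the 2 MPH groups.

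Ccl3 and Ccl4, the paired inflammatory proteins of macrophages, were among the more abundant ligands in BECs as well as in Kupffer-like cells. Ccl3 stood at 120, 143 and 137 FPKM in BECs Sham and at 483, 537 and 156 FPKM in BECs BDL. The third BDL library lay just above the highest Sham library, and the difference was not called (1.36, SE 0.46, adjusted p = 0.127). In MPH, Ccl3 stood at 28.6, 24.6 and 8.46 FPKM in Sham and at 57.4, 73.3 and 65.0 FPKM in BDL, with no overlap and no call (1.77, SE 0.44, adjusted p = 0.0875). When all 18 libraries shared 1 model, that same difference was called (adjusted p = 0.025). In Kupffer-like cells the mean was 157 ± 48.6 FPKM in Sham and 349 ± 165 FPKM in BDL, with overlap (adjusted p = 0.205). By means, Ccl3 ran in order from BECs BDL through Kupffer-like BDL, Kupffer-like Sham and BECs Sham, each overlapping the next, to MPH BDL and MPH Sham, which stood clear.

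Ccl4 was the most abundant of the ligands in BECs by mean FPKM. It stood at 167, 205 and 219 FPKM in BECs Sham and at 668, 749 and 150.1 FPKM in BECs BDL, so that BDL 3 lay below every Sham library while the other 2 were above them all (1.10, SE 0.61, adjusted p = 0.308). In Kupffer-like cells the BDL libraries held 184, 402 and 169 FPKM and the Sham libraries 209, 111 and 105 FPKM, with overlap (0.78, SE 0.44, adjusted p = 0.326). In MPH the mean was 17.9 ± 8.91 FPKM in Sham and 30.3 ± 12.4 FPKM in BDL (adjusted p = 0.403). Only the step from Kupffer-like Sham down to MPH BDL separated neighbouring groups in the order of its means.

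Without BECs BDL 3, the differences in BECs were 1.93 for Ccl3 (adjusted p = 0.00704) and 1.85 for Ccl4 (adjusted p = 0.01), both then called. That library had the lowest Ccl2, Ccl3, Ccl4, Ccl7, Ccl20, Ccr1 and Ccr2 of the BECs BDL libraries and the highest Ccl6. Its monocyte marker sum was 281 FPKM (103 and 157 in the other 2 BECs BDL libraries), its neutrophil marker sum 507 FPKM (310 and 394) and its Kupffer cell marker sum 259 FPKM (768 and 781). The part of these in the results was not tested.

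Ccl6, a rodent chemokine made by macrophages and other myeloid cells, was more abundant in Kupffer-like cells and MPH than in BECs. It rose in MPH from 108, 88.3 and 51.4 FPKM in Sham to 264, 393 and 351 FPKM in BDL. Each BDL library stood far above the highest Sham library, and the mean was 4.07 times higher (2.06, SE 0.34, adjusted p = 0.0466). That p was 0.0209 to 0.209 under the 18 other settings tried and passed in 5 of them. In Kupffer-like cells the 3 Sham libraries lay at 240.0, 187 and 215 FPKM, and the BDL libraries at 1251, 1113 and 269 FPKM. The first and second BDL libraries were far above Sham and BDL 3 just above it, and the difference was not called (1.75, SE 0.60, adjusted p = 0.155). Without BDL 3 it was 2.46 (adjusted p = 0.0028). In BECs, Ccl6 stood at 5.89, 7.28 and 26.2 FPKM in Sham and 33.8, 29.9 and 51.3 FPKM in BDL, with no overlap and no call (1.73, SE 0.54, adjusted p = 0.106), and without Sham 3 it was called (2.34, adjusted p = 0.0324).

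Ccl9, the neighbour of Ccl6 and another ligand of Ccr1, rose in MPH and BECs. In MPH its levels were 25.6, 27.0 and 41.3 FPKM in Sham and 102, 129 and 124 FPKM in BDL. All BDL libraries were more than the highest Sham library, with the mean 3.77 times higher (1.91, SE 0.26, adjusted p = 0.0278). In BECs it stood at 4.90, 5.36 and 9.12 FPKM in Sham and 42.1, 21.6 and 23.5 FPKM in BDL. Again the groups did not overlap, with the mean 4.50 times higher (1.99, SE 0.31, adjusted p = 0.0196). In Kupffer-like cells the Sham libraries held 53.6, 27.0 and 34.1 FPKM and the BDL libraries 265, 265 and 66.2 FPKM. The mean was 5.20 times higher with no overlap, but the difference was not called (2.16, SE 0.59, adjusted p = 0.0977). It was called without Kupffer-like BDL 3 (2.82, adjusted p = 0.00642) and with all 18 libraries in 1 model (2.16, adjusted p = 0.0102), where Ccl9 was thus called in all 3 cell types.

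By mean FPKM, Ccl6 and Ccl9 shared the order Kupffer-like BDL, MPH BDL, Kupffer-like Sham, MPH Sham, BECs BDL and BECs Sham, which none of the other ligands had. For Ccl6 only the first 2 groups overlapped, while for Ccl9 those 2 and the groups from Kupffer-like Sham to BECs BDL overlapped in turn. That order depends on how libraries are scaled. The library size implied by the deposited FPKM was 0.517 to 0.741 times the recovered reads in MPH, 1.07 to 1.18 times in BECs and 0.934 to 1.22 times in Kupffer-like cells. With FPKM rescaled to the recovered reads, Ccl6 was 229 to 284 FPKM in Kupffer-like Sham and 193 to 273 in MPH BDL, so those groups changed places and overlapped, and MPH Sham (26.5 to 80.1) overlapped BECs BDL (35.4 to 60.3). On that scale Ccl9 was lower in MPH Sham (19.0 to 21.3) than in BECs BDL (25.5 to 45.6). MPH Sham 3 had the lowest Ccl6 of its group, with 797 reads beside 2581 and 2001, while its Ccl9 reads were near those of the other 2 (1087 beside 1037 and 1040). Its Kupffer cell marker sum was 2422 FPKM beside 10044 and 4489 FPKM in MPH Sham 1 and 2. Of the other genes, Ccr1 and Ccr2 also had neighbouring groups whose place or overlap turned with that scaling, as given with each, and Ccl2, Ccl3, Ccl4 and Ccl7 had none.

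Ccl20, a lymphocyte and dendritic cell attractant made by epithelia, was detected at more than 1 read per library in BECs alone. It stood at 1.13, 3.09 and 1.8 FPKM in BECs Sham and 12.6, 25.9 and 2.74 FPKM in BECs BDL. BDL 1 and BDL 2 were above all Sham libraries and BDL 3 was within their range. The mean was 2.01 ± 0.992 FPKM in Sham and 13.7 ± 11.6 FPKM in BDL, and the difference did not pass the test (1.93, SE 0.71, adjusted p = 0.153). These levels rest on 32 to 97 recovered reads in Sham and 80 to 671 in BDL. Without BDL 3 the difference was 2.72 and was called (adjusted p = 0.0159), as it was with all 18 libraries in 1 model (1.93, adjusted p = 0.0223). In MPH and Kupffer-like cells no library held more than 1 read of Ccl20, so no fold change was computed there.

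Ccr1, the receptor of Ccl3, Ccl6 and Ccl9 on monocytes and neutrophils, rose in every cell type. In MPH it stood at 1.19, 0.839 and 0.858 FPKM in Sham and 6.92, 5.75 and 12.2 FPKM in BDL. In BECs the Sham libraries held 3.64, 2.97 and 3.14 FPKM and the BDL libraries 32.1, 17.8 and 15.7 FPKM. In Kupffer-like cells it went from 7.53, 4.16 and 5.04 FPKM to 30.4, 28.5 and 36.2 FPKM. No BDL library came within the Sham range in any cell type. The mean was 8.59 times higher in MPH (log2 difference 2.18, SE 0.28, adjusted p = 0.0249), 6.73 times in BECs (2.36, SE 0.26, adjusted p = 0.00951) and 5.69 times in Kupffer-like cells (2.34, SE 0.22, adjusted p = 0.0208). In BECs the call held under all 18 other settings, with adjusted p from 0.000158 to 0.0477. In MPH and Kupffer-like cells it held in 12 of 18 each, with adjusted p up to 0.103 and 0.144. Kupffer-like BDL and BECs BDL overlapped at the top of the order, MPH BDL overlapped Kupffer-like Sham, and BECs Sham and MPH Sham stood below, clear of each other. Per recovered read, Kupffer-like Sham came before MPH BDL, and MPH BDL overlapped BECs Sham.

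Ccr2, the receptor of Ccl2 and Ccl7 and a mark of inflammatory monocytes, rose in Kupffer-like cells. Its levels there were 9.81, 8.14 and 7.50 FPKM in Sham and 20.6, 15.5 and 27.4 FPKM in BDL, with no overlap. The mean was 2.49 times higher (1.2, SE 0.23, adjusted p = 0.0469), a call that held under 6 of 18 other settings. In BECs the Sham libraries stood at 4.38, 2.37 and 2.22 FPKM and the BDL libraries at 12.1, 14.6 and 4.82 FPKM. The lowest BDL library was just above the highest Sham library, and the difference was not called (1.45, SE 0.40, adjusted p = 0.0776). In MPH the Sham libraries stood at 0.779, 0.890 and 0.702 FPKM and the BDL libraries at 8.81, 5.68 and 0.965 FPKM, with too few libraries at 1 FPKM for a test. By means, Ccr2 was highest in Kupffer-like BDL, which stood clear of BECs BDL. From BECs BDL through Kupffer-like Sham and MPH BDL to BECs Sham each group overlapped the next, and MPH Sham was lowest. Per recovered read, Kupffer-like BDL overlapped BECs BDL, and Kupffer-like Sham stood clear of MPH BDL.

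Most tested markers of monocytes and neutrophils had positive differences after ligation, and some had negative ones. The summed FPKM of 10 monocyte markers, a list that holds Ccr2 itself, was 35.5 to 159 in MPH Sham and 138 to 207 in MPH BDL, 62.5 to 75.7 and 103 to 281 in BECs, and 243 to 506 and 624 to 878 in Kupffer-like cells. Of its members, those called higher were 2 of 8 tested (MPH, 0.714% of all genes called higher), 3 of 10 (BECs, 2.96%) and 2 of 10 (Kupffer-like cells, 1.47%). F13a1, a coagulation factor subunit of monocytes, was among them each time, and the other call in Kupffer-like cells was Ccr2 itself. Those with a negative difference were 3 of 8 (MPH), 1 of 10 (BECs) and 2 of 10 (Kupffer-like cells). F13a1 stood at 0.199 ± 0.0326 FPKM in MPH Sham and 3.75 ± 1.04 FPKM in MPH BDL, and so entered the test in MPH only through BDL, where it was high. Vcan, among those called in BECs, ran from 0.453 to 1.00 FPKM in BECs Sham and from 2.05 to 4.59 FPKM in BECs BDL. It entered the test there chiefly through BDL. The sum of 10 neutrophil markers was 28.9 to 116 in MPH Sham and 112 to 284 in MPH BDL, which overlapped, 51.3 to 129.97 and 310 to 507 in BECs, and 311 to 331 and 861 to 2378 in Kupffer-like cells. Of 9 tested in each cell type, 0 were called higher in MPH (5 at an unadjusted p under 0.05), 5 in BECs and 4 in Kupffer-like cells. Cxcr2, among the 5 in BECs, ran from 0.0515 to 0.380 FPKM in BECs Sham and from 1.06 to 2.86 FPKM in BECs BDL. It entered the test there only through BDL, where it was high. The shares of all genes called higher are those given for the monocyte list. Neutrophil markers with a negative difference numbered 1 (MPH), 1 (BECs) and 0 (Kupffer-like cells). No marker of either list was at 0 in all 3 libraries of a group. Ly6c2, a defining surface marker of inflammatory monocytes, did not pass the test in any cell type (adjusted p = 0.898, 0.247 and 0.686). The part of these markers in the rises of Ccr1, Ccr2 and the ligands was not tested.

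**Figure D3:**
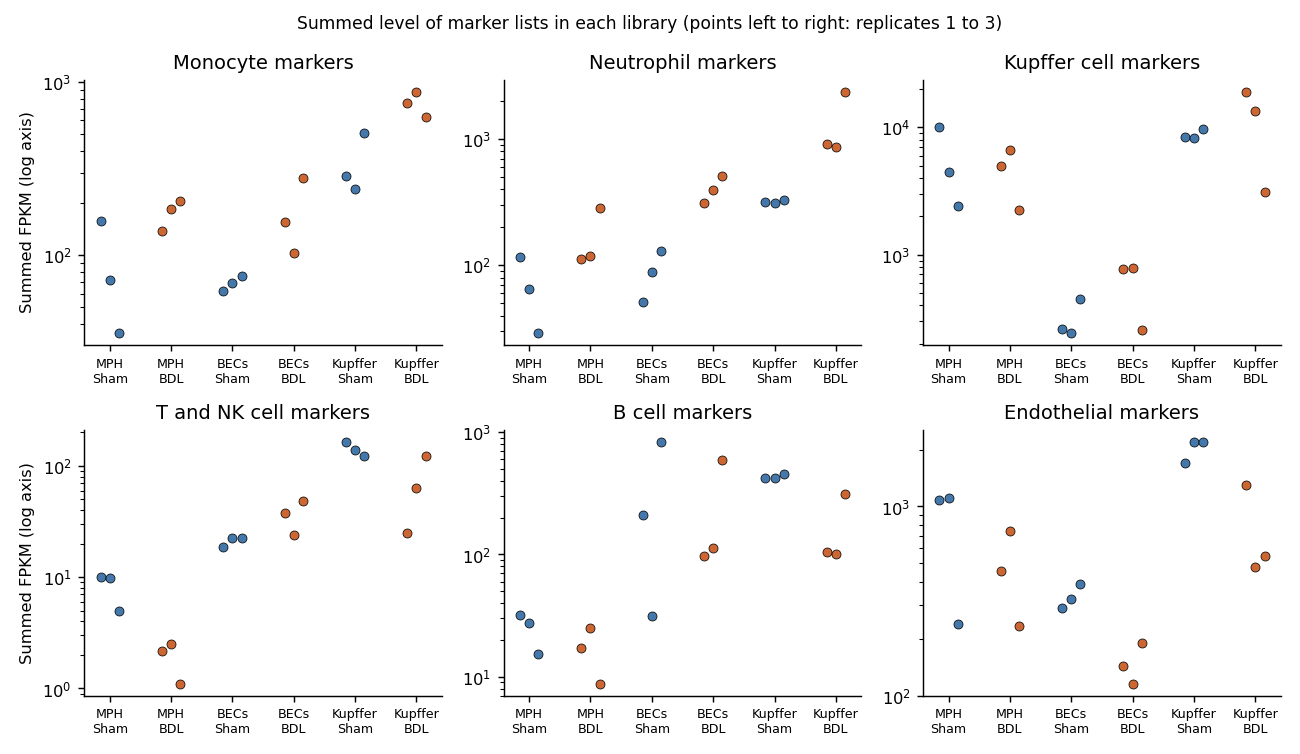
Summed FPKM of 6 marker lists in each library, on a log axis, in Sham (blue) and BDL (orange) of MPH, BECs and Kupffer-like cells; points from left to right are replicates 1 to 3. Neutrophil marker sums in BECs are 51.3 to 129.97 in Sham and 310 to 507 in BDL, and Kupffer cell marker sums in MPH Sham reach those of Kupffer-like Sham.

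The Sham libraries were compared next, for the levels of the 9 genes by cell type without ligation. Ccl20 is not counted here, since it held at most 1 read in any MPH or Kupffer-like library and entered the fit only through BECs. Ccr2 was below 1 FPKM in every MPH Sham library (41 to 76 reads) and entered only through the other cell types, where it was higher. Ccr1 was at 1 FPKM or more in only 1 MPH Sham library (21 to 45 reads per library). It entered chiefly through the other cell types, where it was higher. Both receptors are counted below, and their calls against MPH carry that limit. MPH and BECs differed in 8 of the 8 other genes, where 58.3% of all 14466 genes tested were called, 30% higher and 28.3% lower in MPH. Ccl6 was higher in MPH by 2.79 (SE 0.49, adjusted p = 0.00103) and Ccl9 by 2.13 (SE 0.31, adjusted p = 0.000334), and the other 6 were lower in MPH. The difference was -3.52 for Ccl4, -2.83 for Ccl7, -2.79 for Ccl3 and -2.35 for Ccl2. MPH and Kupffer-like cells differed in 7 of these 8 (56.8% of all genes called, 28.7% higher and 28.1% lower in MPH), all lower in MPH, with Ccl9 not called (-0.26, interval -0.96 to 0.44). Ccl9 was called lower in MPH under 3 other scalings, by -0.87 with quantile normalization (adjusted p = 0.0347), by -1.10 with libraries scaled to recovered reads (adjusted p = 0.00615) and by -1.45 with a common FPKM sum (adjusted p = 0.000597). The last 2 moved the median of all genes by -0.60 and -0.85 in that pair. Ccr2 differed by -2.40 (adjusted p = 1.92e-05) and Ccr1 by -1.72 (adjusted p = 8.69e-05). The call of Ccl6 in that pair (-1.42, adjusted p = 0.0336) was lost without MPH Sham 2 or 3 and without any Kupffer-like Sham library, and that of Ccl7 without Kupffer-like Sham 3.

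BECs and Kupffer-like cells differed in 4 of these 8 genes, where 43.9% of all genes tested were called, 23.9% higher and 20% lower in BECs. Ccl20, described above by its reads, was at 0 in all 3 Kupffer-like Sham libraries. Ccl6 was lower in BECs by a log2 difference of -4.21 (SE 0.49, adjusted p = 0.000126), Ccl9 by -2.38 (SE 0.31, adjusted p = 0.000243), Ccr2 by -1.28 (adjusted p = 0.0008) and Ccr1 by -0.60 (adjusted p = 0.0304). Ccl2, Ccl3, Ccl4 and Ccl7 were not called in that pair, with intervals of -1.02 to 1.29, -1.12 to 0.73, -0.40 to 1.48 and -0.36 to 2.14. Ccr1 was not called without any 1 of the BECs Sham libraries, nor without Kupffer-like Sham 1 or 3. Beside this, the Kupffer cell marker sum was 242 to 451 FPKM in BECs Sham and 8243 to 9713 FPKM in Kupffer-like Sham.

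**Figure D4:**
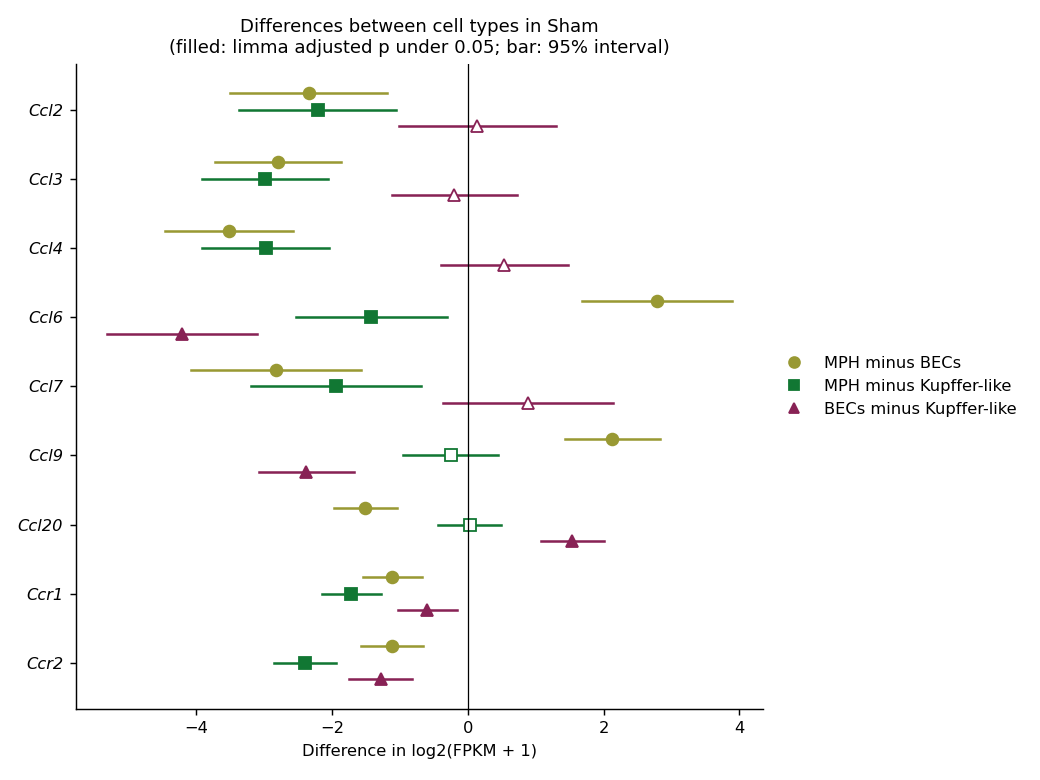
Differences between cell types in the Sham libraries on the log2(FPKM + 1) scale, with 95% intervals as bars; filled symbols passed the adjusted threshold of 0.05 in limma. Ccl6 and Ccl9 lie above 0 for MPH minus BECs and below 0 for BECs minus Kupffer-like cells. Ccl20 held at most 1 read in any MPH or Kupffer-like library, so its values are set by BECs and the pseudocount.

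Whether the response to ligation differed between cell types was tested as the difference of the 2 differences. Limma called 0 of 9 genes for MPH minus BECs (1.6% of all genes called), 0 of 8 tested for MPH minus Kupffer-like cells (0.404%) and 0 of 9 for BECs minus Kupffer-like cells (3.5%). The numbers at an unadjusted p under 0.05 were 1 (Ccl20), 0 and 2 (Ccl2 and Ccl20), and limma voom on recovered reads also called 0 in each. Ccl2 responded by 1.51 more in BECs than in Kupffer-like cells (interval 0.03 to 2.98, adjusted p = 0.223). Ccl20 has no response to compare outside BECs, where it held at most 1 read in any library. For Ccr1 the intervals were narrower, -1.06 to 0.70 for MPH minus BECs, -0.96 to 0.65 for MPH minus Kupffer-like cells and -0.77 to 0.82 for BECs minus Kupffer-like cells. For Ccl6 and Ccl9 in BECs minus Kupffer-like cells they were -1.94 to 1.89 and -1.76 to 1.43, so that differences of more than 1 on the log2 scale lie within them.

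Several pairs of ligands varied together among the libraries of a group, neighbours on the chromosome and others. After each group mean was taken out, Pearson's r of log2(FPKM + 1) over the 18 libraries was 0.88 for Ccl3 and Ccl4, 0.85 for Ccl2 and Ccl7, 0.75 for Ccl2 and Ccl3, and 0.67 for Ccl6 and Ccl9. It was 0.64 for Ccl4 and Ccl20 and 0.59 for Ccl3 and Ccl20, which lie on different chromosomes. The neighbours Ccr1 and Ccr2 had an r of -0.14, and Ccl6 and Ccr2 one of -0.40. These are descriptions, since libraries share their cell preparation and the scale of their depth. Over all 18 libraries with group means kept in, the genes with the most similar levels among 13670 were Tnf (0.97), Nfkbia (0.96) and Nfe2l2 (0.95) for Ccl4, and Ccrl2 (0.95), Rab7b (0.95) and Acot9 (0.94) for Ccl3. They were Basp1, Ccl7 and Ccl3 (0.91 to 0.92) for Ccl2, and Stx11, Nfkbia and Birc3 (0.94 to 0.95) for Ccl7. For Ccl6 they were Fcgr3, AB124611 and Kcnk13 (each 0.96), and for Ccl9 Gusb, Pla2g7 and Ccl6 itself (each 0.93). For Ccl20 they were Asz1 (0.98), Vash2 and Sh2d4b (each 0.96), for Ccr1 F13a1 (0.97), C5ar1 (0.96) and Clec4d (0.95), and for Ccr2 Elmo1, Mcub and Cyp4f18 (0.89 to 0.90). Such values follow the differences between cell types as well as ligation.

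A list of 15 other chemokine ligand genes held CC ligands and the CX3C ligand Cx3cl1. Those tested were 5 (MPH), 9 (BECs) and 6 (Kupffer-like cells), and limma called 0 of them in each, with 2, 0 and 2 at an unadjusted p under 0.05. Their median difference was -0.45, 0.10 and -0.29, beside 1.57, 1.73 and 1.00 for the ligands described above. Both sets were chosen with earlier results of these data known, so that contrast is a description and no test. Of 13 other chemokine receptor genes, Ccrl2, an atypical receptor without known signalling, rose in BECs (1.58, SE 0.32, adjusted p = 0.0356) and in Kupffer-like cells (1.30, SE 0.25, adjusted p = 0.0465). Ccrl2 stood at 65.1 ± 2.52 FPKM in Kupffer-like Sham and 166 ± 45.1 FPKM in Kupffer-like BDL. The atypical receptors Ackr1 and Ackr4, which take up chemokines, fell in Kupffer-like cells, Ackr1 from 15.6 ± 1.61 to 2.28 ± 0.820 FPKM (-2.36, SE 0.22, adjusted p = 0.0208) and Ackr4 from 1.91 ± 0.213 to 0.291 ± 0.216 FPKM (-1.18, SE 0.18, adjusted p = 0.0352). Ackr4 was below 1 FPKM in every Kupffer-like BDL library and entered the test only through Sham, where it was high. Both are also known in endothelial cells, whose 11 markers summed to 1698 to 2188 FPKM in Kupffer-like Sham and 480 to 1299 FPKM in Kupffer-like BDL; the part of that in these falls was not tested. The receptor of Ccl20, Ccr6, was below 2 FPKM in every library.

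Genes that carry the signal of chemokine receptors were followed as a list. Of its 26 genes, 8 were called higher in BECs (2.96% of all genes called higher), 0 in MPH (0.714%; 0 of the list also at an unadjusted p under 0.05) and 1 in Kupffer-like cells (1.47%), where 1 was called lower (3.88% of all genes called in either direction). The 8 in BECs included Vav1 (1.42, adjusted p = 0.0093), an exchange factor of blood cells, the Src family kinase Fgr (1.27, adjusted p = 0.0146), Dock2 (1.01, adjusted p = 0.0159), which drives leukocyte migration, and Pik3r5 (1.94, adjusted p = 0.0188), a subunit of the G protein-activated lipid kinase. Pik3r5 was the one that rose in Kupffer-like cells (0.94, adjusted p = 0.0457) and the phospholipase Plcb3 the one that fell (-0.73, adjusted p = 0.041). These are largely genes of blood cells, and the monocyte and neutrophil marker sums of BECs given above were higher in the same libraries; their part was not tested.

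Of 20 genes of NF-kappa-B signalling and its cytokine inducers and targets, the number called higher was 1 (MPH, 0.714% of all genes called higher), 4 (BECs, 2.96%) and 1 (Kupffer-like cells, 1.47%), and 0 were called lower. Il6 rose in MPH from 1.01 ± 1.19 to 13.0 ± 5.26 FPKM (2.87, SE 0.47, adjusted p = 0.0466). It ran from 0.191 to 2.38 FPKM in MPH Sham and from 6.97 to 16.1 FPKM in MPH BDL. Il6 thus passed the filter in MPH chiefly through BDL, where it was high. In BECs, Il1a (2.34, adjusted p = 0.00998), Il1b (2.00, adjusted p = 0.0165), Il6 (1.14, adjusted p = 0.0398) and Tnfaip3, a feedback inhibitor of the pathway (0.94, adjusted p = 0.0319), rose. Tlr2 rose in Kupffer-like cells (0.76, adjusted p = 0.0489). Tnf, whose levels most resembled those of Ccl4, was not called in any cell type (adjusted p = 0.308, 0.0902 and 0.289).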

How the data were processed

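The deposited table holds FPKM values for 54532 genes in 18 libraries, computed by the authors. The submitters' processing notes name CASAVA 1.8, fastp, HISAT2 2.0.5, featureCounts 1.5.0-p3, DESeq2 1.20.0 and the build GRCm38 (mm10), with no role or order. TRIzol extraction and the VAHTS Universal V6 kit are per the labels. Neither strandedness nor the handling of reads that fit several family members is given in the sources used here. Hepatic stellate cells, also named in the design, were not analysed here.

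Groups came from the cell type and treatment labels. Values were analysed as log2(FPKM + 1), so differences of low genes are understated. A gene entered a comparison with at least 1 FPKM in at least 3 of its libraries, and limma 3.58.1 (R 4.3.3) was used for the test (eBayes with trend and robust, 2-sided, Benjamini-Hochberg over all genes tested). BDL was compared with Sham in 6 libraries, responses in 12 and cell types over the 9 Sham libraries in 1 fit. Whole reads were recovered from the deposited FPKM with GENCODE M21 exon lengths, within a tolerance of 0.02 reads in every library for 52730 of 53710 genes (98.2%). They are used for depth and for limma voom, which called 2, 3 and 2 of the described genes after ligation. The pipeline was tested on simulated data.

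The described genes and the lists of other genes were chosen with earlier results of these data known. All 9 genes are named whatever their result, with the 3 most similar genes each and at most 4 called genes per list. Title numbers are shared by 3 pairs of MPH and Kupffer-like libraries, and the labels do not say what they stand for. Deviations of same-numbered libraries from their group means had correlations of 0.213, 0.32 and 0.30. Differently numbered pairs of the same treatment ran from -0.32 to 0.208, so all same-numbered values lay above them, the lowest by little. Whether same-numbered libraries share an animal was not tested, and the main tests take all libraries as unpaired. The numbers were taken to pair the libraries in an alternative fit only, with the number as a block. The alternatives were no filter on level, pseudocounts of 0.1 and 0.01, FPKM of at least 5, 6 other scalings or models, and leaving out each library. Scaling to recovered reads and sex as a covariate, read from Y-linked genes, were added after the data were seen. Promoter entries are RefSeq's (GRCm38.p6).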

Additional observations from a re-analysis of the deposited data

Results flagged for a closer look

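The response to ligation differed between BECs and Kupffer-like cells, by limma's test of the difference itself, for 3 of 67 genes tested in the lists around the CC chemokines (4.48%), a share near the 3.5% called among all genes tested. The difference of the responses was 2.60 for Il1a (adjusted p = 0.0386), which stood at 19.6 ± 2.78 FPKM in BECs Sham and 107 ± 33.2 FPKM in BECs BDL, and at 169 ± 36.9 and 155 ± 82.9 FPKM in Kupffer-like cells (n = 3 each). It was 1.05 for Rac2 (adjusted p = 0.0483), a GTPase of blood cells, with 12.8 ± 3.65 and 28.8 ± 1.34 FPKM in BECs beside 108 ± 10.9 and 115 ± 8.86 FPKM in Kupffer-like cells. It was 0.99 for Ackr4 (adjusted p = 0.0442), with 0.495 ± 0.122 and 0.304 ± 0.127 FPKM in BECs beside 1.91 ± 0.213 and 0.291 ± 0.216 FPKM in Kupffer-like cells, and Ackr4 entered that test only through Kupffer-like Sham, where it was high.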

How the results depend on the processing

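Directions of the 24 tested ligation differences did not reverse under any setting. Of 430 single values, 368 kept their side of the threshold, 51 lost it, 11 gained it and 0 reversed. Without a filter on level, the calls were 0 (MPH), 1 (BECs) and 0 (Kupffer-like cells); the cause was not tested. In Kupffer-like cells, 1 was called with a pseudocount of 0.1 or 0.01, with libraries scaled to a common FPKM sum or to recovered reads, and 0 with sex as a covariate, which also ended the calls of Ccl2 in BECs (adjusted p = 0.0534) and of Ccl6 in MPH (adjusted p = 0.0614). Leaving out 1 library gave 0 to 1 calls in MPH, 1 to 7 in BECs and, in Kupffer-like cells, 0 to 5, 0 to 1 (Ccl20, without BECs BDL 3) for the response differences of BECs against each other cell type and 0 for MPH minus Kupffer-like cells. Between Sham cell types, where 9, 7 and 5 were called with Ccl20 included, it gave 8 to 9 for MPH and BECs, 5 to 7 for MPH and Kupffer-like cells and 3 to 5 for BECs and Kupffer-like cells, and 3 in the last with FPKM of at least 5, where Ccl20 and Ccr1 were not tested; 8 were called for MPH and Kupffer-like cells under 3 other scalings. With the title number as a replicate block, 9, 7 and 5 members were called between Sham cell types and 0 for each response difference, and no call changed; no Sham library shares a number with a BDL library. With a common FPKM sum, the median of all genes moved by 0.14 in MPH and -0.27 in Kupffer-like cells for ligation and by -0.83 for MPH minus BECs; no called member changed sign between Sham cell types. Ccl20 and the receptors in MPH rest on few reads, which limits their differences.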

Other observations

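Some other chemokine genes had levels near those of the genes above, chosen here after their values were seen. Ccl5, a T cell and monocyte attractant, stood at 48.0 ± 4.91 FPKM in Kupffer-like Sham and 27.7 ± 19.6 FPKM in Kupffer-like BDL, at 4.63 ± 1.99 and 1.07 ± 0.360 FPKM in MPH, and at 15.6 ± 5.61 and 45.6 ± 39.8 FPKM in BECs (n = 3 each). The difference was not called in MPH (-1.40, limma adjusted p = 0.075), in BECs (1.14, adjusted p = 0.366) or in Kupffer-like cells (-1.01, adjusted p = 0.28). Ccl24, an eosinophil attractant, stood at 55.7 ± 8.25 FPKM in Kupffer-like Sham and 26.5 ± 11.6 FPKM in MPH Sham, but 0.904 ± 0.432 FPKM in BECs Sham.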
